A study of Mus musculus with 6 samples.

Results

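The cadherins and catenins described here are 8 genes that build the adherens junction: the cadherins Cdh1, Cdh2, Cdh3 and Cdh11 and the catenins Ctnna1, Ctnnb1, Ctnnd1 and Jup. They were chosen by gene symbol, and every probe set that the platform annotation assigns to one of them was used, 18 probe sets of 45037 tested and 8 genes of 18193. RNA of whole testes from 12-week-old mice was measured on 6 arrays, 3 labelled SCARKO-jsd and 3 labelled jsd. SCARKO-jsd mice carry a conditional knockout made in Sertoli cells, which nurse the germ cells inside the tubules, together with the jsd mutation of Utp14b; jsd mice carry the Utp14b mutation alone. That mutation (juvenile spermatogonial depletion) stops spermatogonia from maturing, so that tubules of the adult hold little beyond Sertoli cells and early spermatogonia. The labels name neither the driver of that knockout nor the strain, and do not tie the arrays to single mice, so the tests rest on the spread between arrays, part of which may be technical. There was no testis with a full set of germ cells among the groups.

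Cadherins are transmembrane proteins that join neighbouring cells by binding the same kind of cadherin on the other cell in the presence of calcium. Inside the cell their tails bind β-catenin (Ctnnb1) or plakoglobin (Jup), which hold α-catenin (Ctnna1) and through it the actin skeleton, while p120 catenin (Ctnnd1) binds the tail close to the membrane and slows the uptake of cadherin from the surface. β-catenin is also the co-activator that carries Wnt signals into the nucleus. In the testis, N-cadherin (Cdh2) joins Sertoli cells to each other near the blood-testis barrier and to germ cells. The comparison asks how transcripts of these junction proteins differ with the Sertoli cell knockout where most germ cells are missing.

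N-cadherin was the member whose transcript fell. Of the 18 probe sets, 1 of Cdh2 was lower in SCARKO-jsd testes, 0 were higher and 17 did not pass the test, with limma at a threshold of 0.05 on the Benjamini-Hochberg adjusted p. Among all 45037 probe sets 0.28% passed, 0.124% higher and 0.155% lower. At an unadjusted p under 0.05 there were 4 member probe sets, against 10.3% of all probe sets. The median log2 fold change of the 18 probe sets was -0.07, beside 0.01 over all probe sets. Every difference is SCARKO-jsd minus jsd on the log2 scale of the RMA values.

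The arrays fitted their labels at Rhox5, an androgen-induced homeobox gene of Sertoli cells, with 5.44, 6.11 and 5.84 in SCARKO-jsd testes against 10.26, 10.43 and 9.74 in jsd testes (log2 expression). Sertoli cell markers were bright in both groups: 12 of 13 were measured, all 12 above the limit for dim genes (log2 expression of 6.64, under which the brightest probe sets of 40% of genes lie). None of their 20 probe sets passed, and 4 had an unadjusted p under 0.05 by limma. SCARKO-jsd 2 stood apart, with correlations of up to 0.975 with the other arrays across probe sets, where the others reached 0.995 to 0.996 with their nearest. Its probe sets for beta-actin read 1.66 log2 units more at the 3' than at the 5' end, a gap that was 0.70 to 0.98 on the other 5 arrays. Many results are therefore given both with and without this array.

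Cdh2 had the clearest difference. Its brighter probe set, 1418815_at, read 9.51, 9.57 and 9.45 in SCARKO-jsd 1, 2 and 3, against 10.50, 10.33 and 10.25 in jsd 1, 2 and 3 (log2 expression). All 3 SCARKO-jsd arrays lay below all 3 jsd arrays, with a gap between the groups larger than the range within either. The means were 9.51 ± 0.06 in SCARKO-jsd and 10.36 ± 0.13 in jsd testes (SD, n = 3 each). The log2 fold change was -0.85 ± 0.09 (SE), a 1.81-fold lower level, with a 95% interval of -1.08 to -0.62 and a limma Benjamini-Hochberg adjusted p of 0.0379. SCARKO-jsd 2, the array that stood apart, was only 0.09 log2 units above the mean of SCARKO-jsd 1 and 3 at this probe set, and without it the log2 fold change was -0.88 (limma, adjusted p = 0.0155).

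The call of Cdh2 lay close to the threshold. It ended when any array but SCARKO-jsd 2 was left out, with limma adjusted p values between 0.0964 (without jsd 3) and 0.227 (without jsd 2), while the log2 fold change stayed between -0.91 and -0.78. Median centring also ended it (adjusted p = 0.0802, log2 fold change -0.81). With 1 probe set per gene and the dimmest 40% of genes left out, where 3.57% of 10916 genes passed, the adjusted p was 0.00542.

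The second Cdh2 probe set, 1449244_at, lay the same way without passing the test. It read 8.004, 8.53 and 7.87 in SCARKO-jsd 1, 2 and 3, against 9.21, 8.85 and 8.66 in jsd 1, 2 and 3 (log2 expression). The groups did not overlap, and SCARKO-jsd 2 was the closest to the jsd arrays. The log2 fold change was -0.77 ± 0.21 (SE), with a 95% interval of -1.29 to -0.26 and a limma adjusted p of 0.273. Without SCARKO-jsd 2 it was -0.97 and passed (limma, adjusted p = 0.0417), in a fit where 1.39% of all probe sets passed. In whole-testis RNA, fewer cells of a type and less RNA per cell cannot be told apart.

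**Figure D1:**
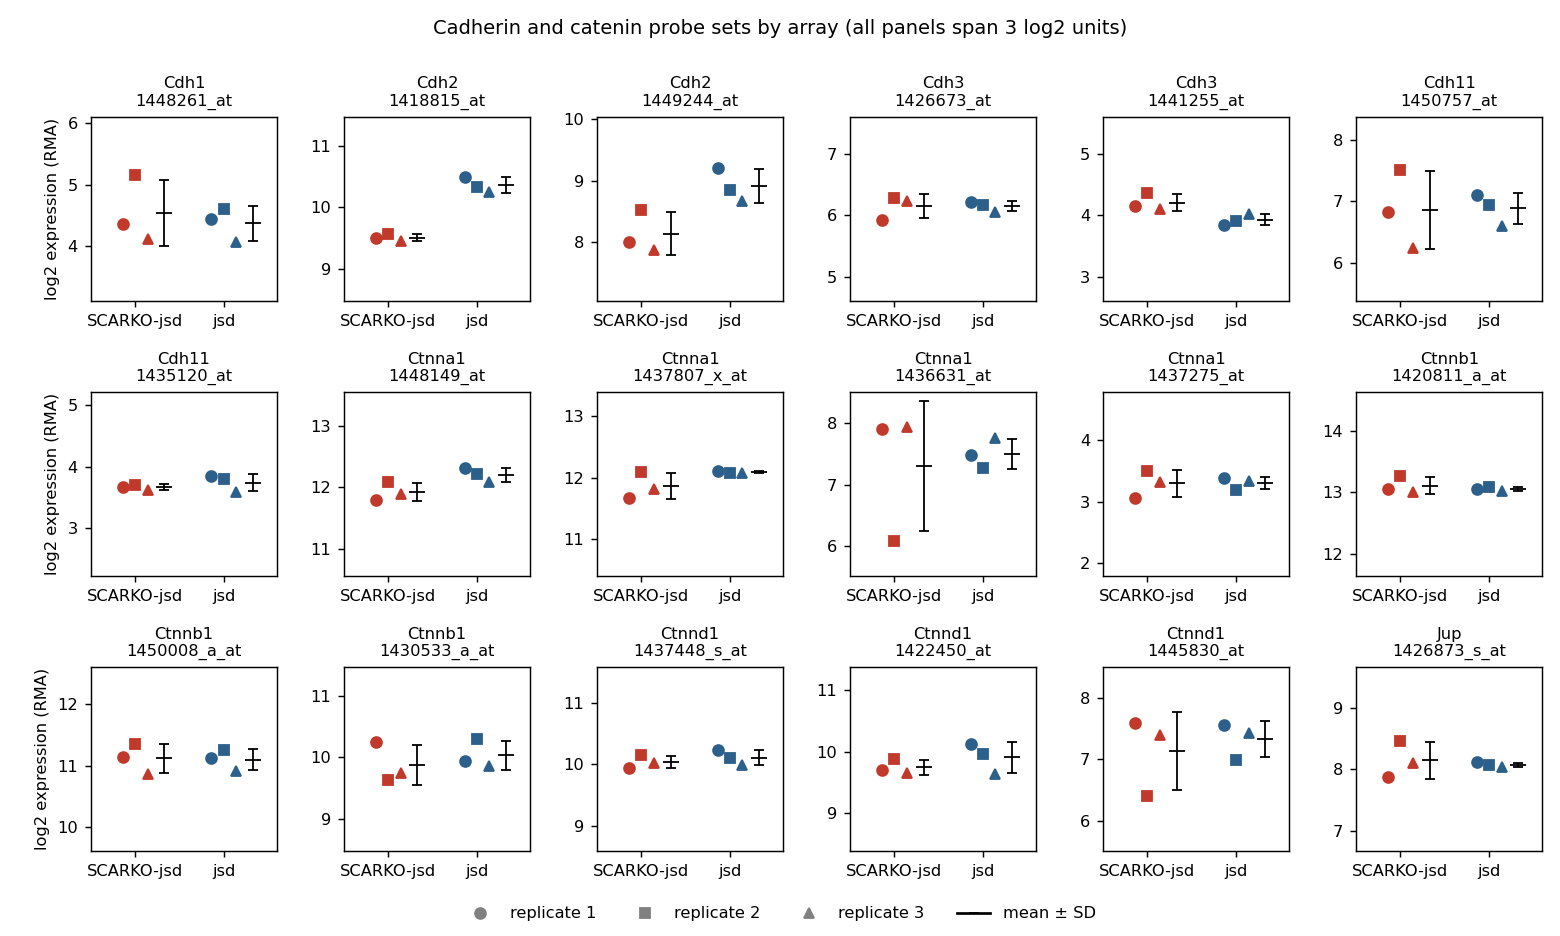
Log2 expression (RMA) of each cadherin and catenin probe set on each array, with SCARKO-jsd arrays in red on the left and jsd arrays in blue on the right of each panel, marker shapes for replicates 1 to 3, and black bars for the mean ± SD (n = 3). The groups lie well apart at Cdh2 1418815_at (9.51 in SCARKO-jsd and 10.36 in jsd testes on average) and close together without overlap at Cdh2 1449244_at, and SCARKO-jsd 2 (square) lies far below its group at Ctnna1 1436631_at and Ctnnd1 1445830_at.

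The other cadherins of the set gave no call. Cdh1 encodes E-cadherin, the cadherin of epithelia, which in the mouse testis is found on undifferentiated spermatogonia. Its only probe set, 1448261_at, read 4.36, 5.15 and 4.13 in SCARKO-jsd 1, 2 and 3, against 4.45, 4.61 and 4.06 in jsd 1, 2 and 3 (log2 expression). These values lie under the limit for dim genes, and the groups overlap. SCARKO-jsd minus jsd came to 0.17 ± 0.28 (SE, limma adjusted p = 0.874, 95% interval -0.51 to 0.85), and it turned to -0.13 without SCARKO-jsd 2.

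Cdh3 encodes P-cadherin, first known from the placenta. Its brighter probe set, 1426673_at, read 5.92, 6.28 and 6.23 in SCARKO-jsd testes, against 6.22, 6.16 and 6.05 in jsd testes (log2 expression). The groups overlap and their means were nearly equal, with a difference of -0.001 ± 0.12 (SE) whose 95% interval ran from -0.29 to 0.29. The other probe set, 1441255_at, was near the bottom of the scale, with 4.15, 4.36 and 4.10 in SCARKO-jsd testes, against 3.85, 3.91 and 4.03 in jsd testes. Here the SCARKO-jsd arrays all lay higher, by 0.27 ± 0.10 (SE) on average, without passing the test (limma adjusted p = 0.425). Both probe sets of Cdh3 were dim.

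Cdh11 encodes OB-cadherin, a cadherin of mesenchymal cells. Its brighter probe set, 1450757_at, read 6.82, 7.50 and 6.24 in SCARKO-jsd 1, 2 and 3, against 7.11, 6.94 and 6.60 in jsd 1, 2 and 3 (log2 expression). SCARKO-jsd 2 was the highest of all 6 arrays and SCARKO-jsd 3 the lowest, so the jsd values lie inside the SCARKO-jsd range. On average the groups differed by -0.03 ± 0.32 (SE, limma adjusted p = 0.986), with a wide 95% interval of -0.79 to 0.74, and it was -0.35 without SCARKO-jsd 2 (adjusted p = 0.520). The dim probe set 1435120_at spanned 3.62 to 3.71 in SCARKO-jsd and 3.59 to 3.84 in jsd testes, with a difference of -0.08.

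No catenin probe set passed the test. There were 11 of them for the 4 catenins, with log2 fold changes below 0 for 8 and above 0 for 3. The ends of that range were -0.28 for Ctnna1 1448149_at and 0.07 for Jup.

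Ctnna1, the α-catenin that links the complex to actin, came closest. Its brightest probe set, 1448149_at, read 11.79, 12.08 and 11.89 in SCARKO-jsd 1, 2 and 3, against 12.31, 12.21 and 12.08 in jsd 1, 2 and 3 (log2 expression). The groups touched at 12.08, where SCARKO-jsd 2 equalled jsd 3. The log2 fold change was -0.28 ± 0.11 (SE, limma adjusted p = 0.459), with a 95% interval of -0.54 to -0.01.

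A second bright Ctnna1 probe set, 1437807_x_at, had 11.68, 12.10 and 11.81 in SCARKO-jsd 1, 2 and 3, against 12.11, 12.08 and 12.08 in jsd testes. SCARKO-jsd 1 and 3 lay below the tightly grouped jsd arrays and SCARKO-jsd 2 lay among them, with a log2 fold change of -0.23 ± 0.12 (SE, limma adjusted p = 0.591). The suffix _x_at marks probes that may also bind other transcripts. Without SCARKO-jsd 2 these probe sets of Ctnna1 had log2 fold changes of -0.36 and -0.35 (limma adjusted p = 0.180 and 0.138).

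The third probe set of Ctnna1, 1436631_at, behaved differently on SCARKO-jsd 2. It read 7.90, 6.09 and 7.93 in SCARKO-jsd 1, 2 and 3, against 7.48, 7.27 and 7.76 in jsd 1, 2 and 3 (log2 expression). The log2 fold change was -0.20 ± 0.50 (SE) with all arrays and 0.41 ± 0.14 without SCARKO-jsd 2, and neither passed (limma adjusted p = 0.915 and 0.270). The probe sets of this gene therefore differ in sign once that array is left out. The fourth, 1437275_at, was dim, at 3.07 to 3.50 in SCARKO-jsd and 3.19 to 3.38 in jsd testes.

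Ctnnb1 encodes β-catenin. Its brightest probe set, 1420811_a_at, read 13.04, 13.26 and 13.00 in SCARKO-jsd 1, 2 and 3, against 13.06, 13.09 and 13.02 in jsd 1, 2 and 3 (log2 expression). The groups overlap, and apart from SCARKO-jsd 2 all arrays lay between 13.00 and 13.09. The means differed by 0.05 ± 0.10 (SE, limma adjusted p = 0.897), with a 95% interval of -0.18 to 0.28 that leaves out a change of the size of that of Cdh2.

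The other Ctnnb1 probe sets overlapped between the groups too. Probe set 1450008_a_at spanned 10.86 to 11.35 in SCARKO-jsd and 10.91 to 11.25 in jsd testes, with a difference of 0.02 ± 0.15 (SE). Probe set 1430533_a_at spanned 9.63 to 10.25 in SCARKO-jsd and 9.86 to 10.30 in jsd testes, with a difference of -0.16 ± 0.20 (SE).

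Ctnnd1 encodes p120 catenin. Its brightest probe set, 1437448_s_at, read 9.94, 10.15 and 10.03 in SCARKO-jsd 1, 2 and 3, against 10.23, 10.11 and 9.98 in jsd 1, 2 and 3 (log2 expression). The difference, -0.07 ± 0.10 (SE, limma adjusted p = 0.854), was smaller than the SD within either group (0.10 in SCARKO-jsd and 0.12 in jsd testes). Probe set 1422450_at differed by -0.16 ± 0.15 (SE). Probe set 1445830_at was low on SCARKO-jsd 2 (6.41, beside 7.60 and 7.40 in SCARKO-jsd 1 and 3), and its log2 fold change of -0.19 turned to 0.17 without that array.

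Jup encodes plakoglobin, the relative of β-catenin that also serves in desmosomes. Its only probe set, 1426873_s_at, read 7.87, 8.46 and 8.10 in SCARKO-jsd 1, 2 and 3, against 8.11, 8.07 and 8.03 in jsd 1, 2 and 3 (log2 expression). The jsd arrays lie inside the range of the SCARKO-jsd arrays. Their means differed by 0.07 ± 0.15 (SE, limma adjusted p = 0.898, 95% interval -0.29 to 0.44), and it was -0.08 without SCARKO-jsd 2.

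**Figure D2:**
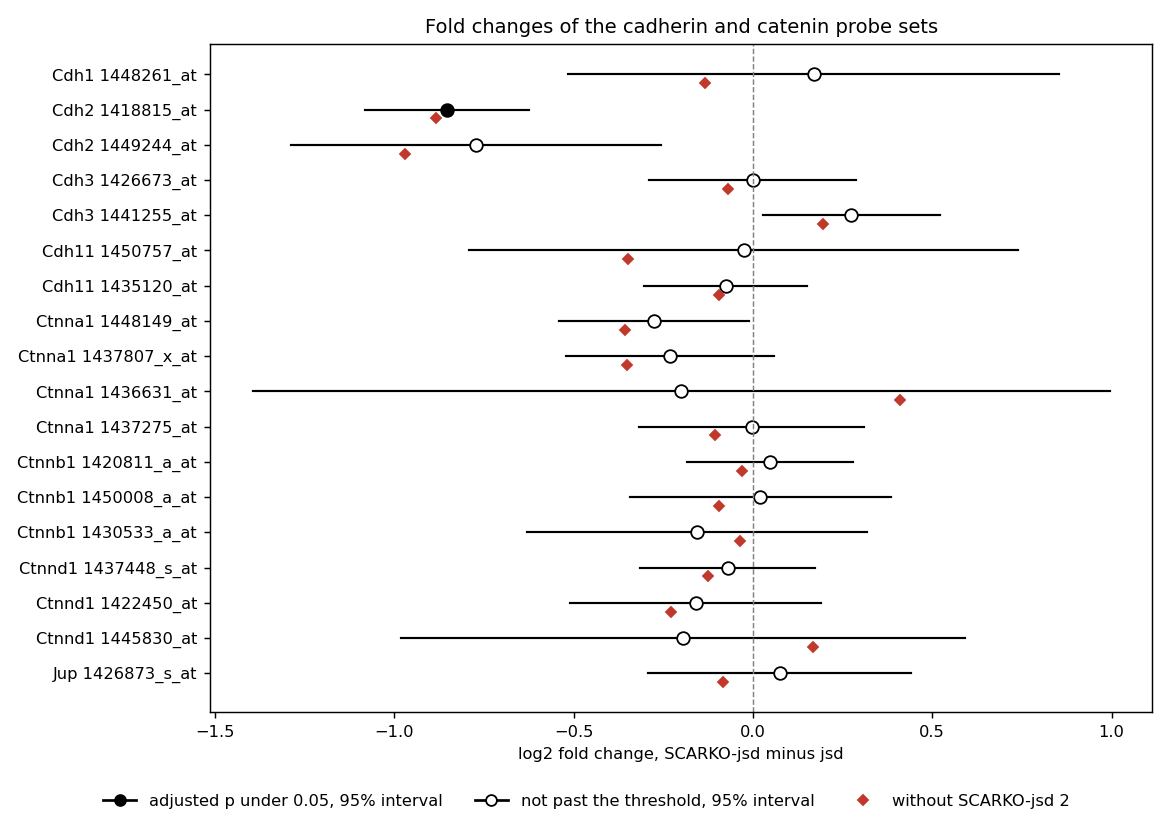
Log2 fold change (SCARKO-jsd minus jsd) of each cadherin and catenin probe set, with circles for all 6 arrays, lines for limma's 95% intervals and red diamonds for the value without SCARKO-jsd 2. Only Cdh2 1418815_at (-0.85) is filled, which marks an adjusted p under 0.05; the widest interval, -1.39 to 0.99, is that of Ctnna1 1436631_at.

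The intervals show what the values of the other members leave possible. Of the 16 probe sets of the 7 members other than Cdh2, 14 had a 95% interval that holds 0, and the others were Cdh3 1441255_at and Ctnna1 1448149_at. The interval reached as low as the Cdh2 value of -0.85 for 2 of the 16, Ctnna1 1436631_at and Ctnnd1 1445830_at. Among the 16 were 5 dim probe sets, of Cdh1, Cdh3, Cdh11 and Ctnna1. Near the bottom of the scale a change can be understated, so their intervals cannot tell whether such a fall was missed. In simulated data of this size, with independent noise and no outlying array, the test recovered 68.7% of 2-fold and 8.96% of 1.5-fold changes. Changes under 2-fold could therefore often go without a call, though the rates on the real arrays may differ.

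The fall of Cdh2 was then set against each other member on the same arrays. On the per-array difference between the brightest probe set of Cdh2 and that of the other gene, the SCARKO-jsd arrays lay below the jsd arrays for all 7 members, with no overlap. The difference between the log2 fold changes was -0.58 for Cdh2 against Ctnna1, -0.78 against Ctnnd1, -0.83 against Cdh11, -0.85 against Cdh3, -0.90 against Ctnnb1, -0.93 against Jup and -1.02 against Cdh1. Each of the 7 exact two-sided permutation tests gave p = 0.1, which is the smallest that 3 arrays against 3 allow, and 0.1 after Benjamini-Hochberg adjustment over the 7 pairs. With that floor this test cannot pass the threshold. Cdh2 was also the member already called on these same arrays, and its values enter all 7 differences. The 7 separations are therefore not independent of each other or of that call, and they only describe it.

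The groups did not overlap at 3 member probe sets, both of Cdh2 (lower) and Cdh3 1441255_at (higher). Over all probe sets the groups did not overlap for 16.9%, with 9.99% higher and 6.93% lower in SCARKO-jsd testes. The member count of 3 in 18 is near that background.

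SCARKO-jsd 2 was the highest array of its group at 15 of the 18 member probe sets and the lowest at 3. Over all probe sets it was the highest at 54.7% and the lowest at 26.8%. Its distance from the mean of SCARKO-jsd 1 and 3 was 0.97 log2 units at Cdh11 1450757_at and 0.91 at Cdh1, and -1.83 and -1.09 at Ctnna1 1436631_at and Ctnnd1 1445830_at. The part of RNA quality in these values was not tested. At Cdh2 1418815_at the fold change was as large without the array (-0.88) as with it (-0.85).

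**Figure D3:**
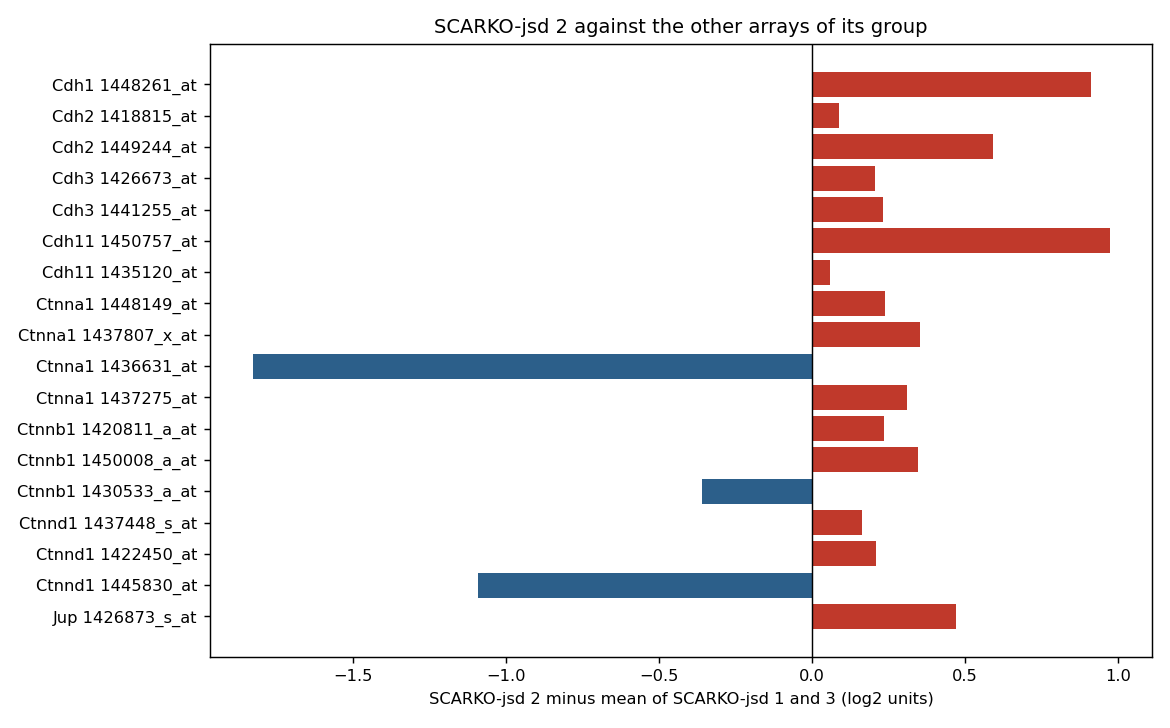
Bars give the log2 expression on SCARKO-jsd 2 minus the mean of SCARKO-jsd 1 and 3, per cadherin and catenin probe set, red where SCARKO-jsd 2 is higher and blue where it is lower. It was higher at 15 probe sets and lower at 3, with the longest bar, -1.83, at Ctnna1 1436631_at.

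Other genes around the adherens junction gave no call with all 6 arrays. Of 18 other cadherins 16 were measured, by 30 probe sets, of which 0 passed by limma and 4 had an unadjusted p under 0.05, with a median log2 fold change of 0.05. Cdh5, the cadherin of endothelium, was the only one of them above the limit for dim genes. The smallest p values were those of Cdh13, a cadherin held by a lipid anchor and lacking the catenin-binding tail (6.16 ± 0.20 in SCARKO-jsd and 5.62 ± 0.08 in jsd testes at 1423551_at, log2 expression, SD, n = 3), and of Cdh19 (5.50 ± 0.60 in SCARKO-jsd and 4.31 ± 0.21 in jsd testes). Their differences were 0.54 and 1.19, with limma adjusted p values of 0.178 and 0.224.

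The 6 other catenins, with 12 probe sets, held 0 calls, 1 unadjusted p under 0.05 by limma and a median log2 fold change of -0.07. Ctnnd2, the δ-catenin known from neurons, was dim and differed by -0.28 at 1456116_at (limma adjusted p = 0.373). At its brighter probe set, 1422592_at, the groups overlapped and differed by -0.14 (limma adjusted p = 0.774). Ctnna2, the α-catenin best known from neurons, had 8.15 ± 0.34 in SCARKO-jsd and 8.56 ± 0.22 in jsd testes (log2 expression, SD, n = 3). The groups overlapped through SCARKO-jsd 2, and the log2 fold change was -0.42 (limma adjusted p = 0.547). Without that array it was -0.61 and did not pass (limma adjusted p = 0.110).

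Plaque proteins and actin linkers were measured by 42 probe sets of 15 genes, with 0 calls by limma, 11 at an unadjusted p under 0.05 and a median log2 fold change of 0.0015. Ptprf, the receptor phosphatase LAR, came nearest to the threshold. Its 3 probe sets had log2 fold changes of 0.98, 0.87 and 0.69, the groups did not overlap at any of them, and the smallest limma adjusted p was 0.0572 (1420842_at, 10.47 ± 0.14 in SCARKO-jsd and 9.50 ± 0.20 in jsd testes, log2 expression, SD, n = 3). Without SCARKO-jsd 2, 2 of these passed (limma adjusted p = 0.0265 and 0.0141). Plekha7, a p120 catenin binder chosen after its value was seen, then passed at the dim probe set 1455343_at (-0.98, limma adjusted p = 0.0255). With all arrays the groups overlapped at that probe set. Without SCARKO-jsd 2 the brightest Plekha7 probe set, 1434889_at, did not pass (-0.76, limma adjusted p = 0.0564). Nor did 1439229_at (-0.11, limma adjusted p = 0.697). Ptprm, a phosphatase that binds cadherin complexes, differed by 0.68 (limma adjusted p = 0.171).

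Among 8 measured genes for the uptake, cleavage and phosphorylation of cadherin complexes, 0 of 24 probe sets passed by limma, 4 had an unadjusted p under 0.05 and the median log2 fold change was -0.04. Fyn, a kinase of the Src family, differed by -0.45 and -0.39 at its probe sets with the smallest p (limma adjusted p = 0.146 and 0.410). Without SCARKO-jsd 2 these were -0.50 and -0.27, and neither passed (limma adjusted p = 0.0636 and 0.378). Numb, an adaptor for endocytosis, differed by 0.30 (limma adjusted p = 0.342).

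Desmosomal genes, 10 measured with 24 probe sets, held 0 calls by limma and 2 unadjusted p values under 0.05, with a median log2 fold change of 0.08. Dsc3 and Dsc2, desmosomal cadherins, were dim and differed by 0.45 and 0.41 (limma adjusted p = 0.244 and 0.377).

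The nuclear arm of β-catenin showed no call either. The destruction complex and its partners, 10 genes with 35 probe sets, had 0 calls by limma, 3 unadjusted p values under 0.05 and a median log2 fold change of -0.03. Ctnnbip1, which keeps β-catenin off TCF factors, differed by 0.39 (limma adjusted p = 0.314), and the kinase Gsk3a by -0.24 (limma adjusted p = 0.405). Common β-catenin target genes, 14 measured with 28 probe sets, had 0 calls, 3 unadjusted p values under 0.05 and a median of 0.07. Wif1, a secreted Wnt inhibitor, read 5.97, 6.01 and 5.40 in SCARKO-jsd testes, against 4.59, 4.48 and 4.12 in jsd testes (log2 expression). It was dim in both groups, with a difference of 1.40 ± 0.20 (SE) that did not pass with all arrays (limma adjusted p = 0.0678) and passed without SCARKO-jsd 2 (1.29, adjusted p = 0.0329). Rnf43, a ligase that removes Wnt receptors, was dim and differed by 0.76 (limma adjusted p = 0.224), and Axin2, a widely used target gene chosen after its value was seen, by 0.15 at its brighter probe set (limma adjusted p = 0.877), which turned to -0.16 without SCARKO-jsd 2.

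**Figure D4:**
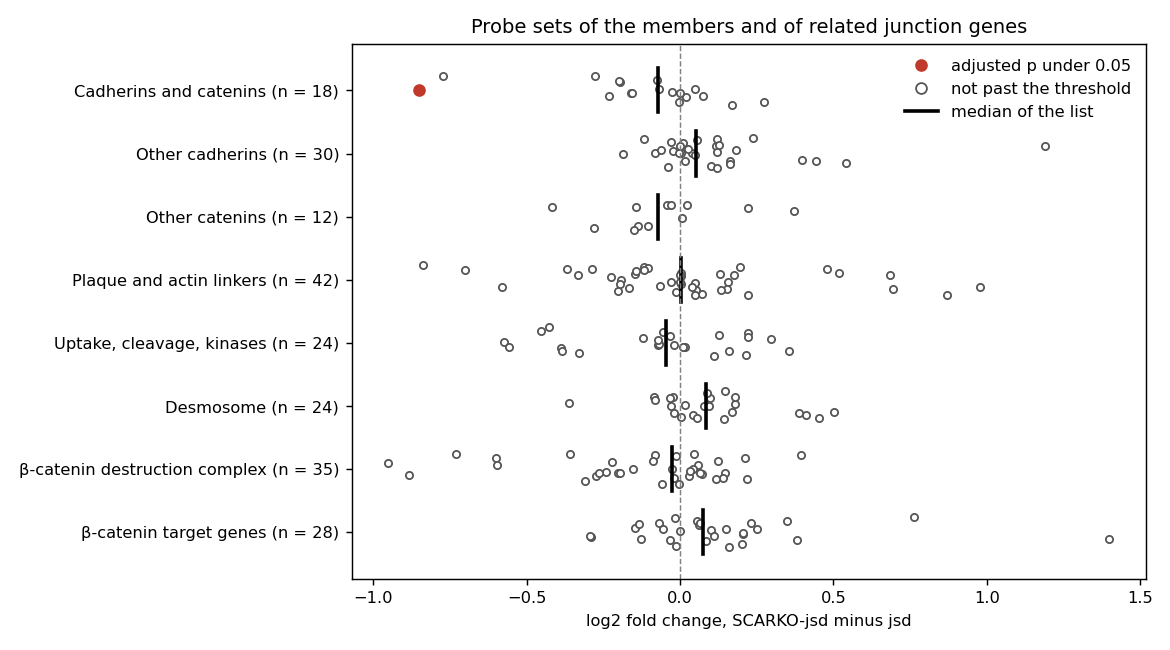
Log2 fold change (SCARKO-jsd minus jsd) of every probe set of the cadherins and catenins and of 7 lists of related junction genes, with black lines at the list medians, red filled points for an adjusted p under 0.05 and open points for the rest. The single red point is Cdh2 1418815_at at -0.85, and the medians lie between -0.07 and 0.08.

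Markers of cell types that carry these junctions were measured beside Cdh2. Among Sertoli cell markers, Wt1, a transcription factor that maintains these cells, differed by -0.48 and Inha, a subunit of inhibin, by 0.33, neither past the threshold (limma adjusted p = 0.135 and 0.203). The linear signal summed over the 12 Sertoli markers was 68932 to 73975 in SCARKO-jsd and 67799 to 70297 in jsd testes, so the ranges overlap. Such a sum is weighted to the brightest markers. The median log2 fold change of the 20 Sertoli marker probe sets was -0.09, beside 0.01 over all probe sets. For 13 spermatogonia markers the summed signal was 9260 to 11037 in SCARKO-jsd and 8322 to 9838 in jsd testes. Their 27 probe sets lay in both directions around a median log2 fold change of -0.01, with 16 at an unadjusted p under 0.05 by limma. With all arrays 0 were called higher and 1 lower, and without SCARKO-jsd 2 there were 1 higher and 4 lower. Id4, a marker of stem spermatogonia, fell by 1.01 at 1423260_at (limma adjusted p = 0.0392), the 1 called probe set. It read 8.25 ± 0.13 in SCARKO-jsd and 9.27 ± 0.15 in jsd testes there (log2 expression, SD, n = 3). The other Id4 probe sets, 1423259_at and 1450928_at, differed by -1.17 and -1.33 (limma adjusted p = 0.0945 and 0.107). Every Id4 probe set passed without SCARKO-jsd 2, so the 4 lower calls of that fit are not 4 separate genes.

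Meiotic and epithelial markers were higher in sum in SCARKO-jsd testes. Every SCARKO-jsd array lay above every jsd array in both sums, so the direction holds without SCARKO-jsd 2. These sums are weighted to the brightest markers, and the median log2 fold changes were 0.12 for meiotic and 0.31 for epithelial probe sets. The signal summed over 11 meiotic and spermatid markers, 6 of them dim, was 1383 to 1743 in SCARKO-jsd and 890 to 1072 in jsd testes. Sycp3, of the synaptonemal complex, rose by 1.31 (limma adjusted p = 0.0339), 1 called probe set of 15, of which 5 had an unadjusted p under 0.05. For 9 epithelial markers, 6 of them dim, the sum was 894 to 1380 in SCARKO-jsd and 587 to 673 in jsd testes. Cldn7, a claudin of epithelia, rose by 1.32 (limma adjusted p = 0.0366), with 8.50, 8.44 and 8.30 in SCARKO-jsd testes against 7.38, 7.04 and 6.87 in jsd testes (log2 expression), 1 called probe set of 12, of which 7 had an unadjusted p under 0.05. The calls of Id4, Sycp3 and Cldn7 each ended when an array other than SCARKO-jsd 2 was left out (limma adjusted p at most 0.235), and median centring ended that of Id4 (0.0702). The part of these cell types in the Cdh2 value was not tested.

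Markers of Leydig, myoid and endothelial cells and macrophages held 0 called probe sets of 9, 14, 12 and 12 by limma, with 0, 0, 3 and 1 at an unadjusted p under 0.05. The summed signal overlapped between the groups for each. For endothelium it was 1085 to 1660 in SCARKO-jsd and 1183 to 1407 in jsd testes, and Kdr, a VEGF receptor, differed by -0.79 (limma adjusted p = 0.166), passing without SCARKO-jsd 2 (-0.94, adjusted p = 0.0221). Flt1, another such receptor, differed by 0.41 at a dim probe set and by 0.08 at its brightest. The Leydig cell enzyme gene Cyp11a1 differed by 0.58 at a dim probe set and by -0.07 at its brightest, and Hsd17b3 by 0.25. Of the smooth muscle genes, Tagln differed by 0.20, and Acta2 by -0.28 at a dim probe set (-0.10 without SCARKO-jsd 2) and by -0.04 at its bright one. The macrophage genes Fcer1g and Cd68 differed by -0.33 and -0.20, and Cd68 by -0.12 without SCARKO-jsd 2.

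The genes most like Cdh2 across the 6 arrays, by Pearson's r between brightest probe sets over 18193 genes, were Pkn3, Bex2, Arhgap31, Nfatc2ip and Shc4, with r between 0.996 and 0.999. These arrays fall into 2 groups, so a high r mostly restates a fall in SCARKO-jsd testes, and it is given as a description. Arhgap31 had 8.82 ± 0.16 in SCARKO-jsd and 10.45 ± 0.16 in jsd testes (log2 expression, SD, n = 3), a log2 fold change of -1.63. The differences of Pkn3, a protein kinase, Nfatc2ip and Shc4, an adaptor protein, were -1.01, -1.08 and -1.16, and these 4 genes passed (limma adjusted p of at most 0.0395). Leaving out SCARKO-jsd 2 kept these 4 calls, and leaving out any other array ended them (limma adjusted p at most 0.227), as median centring did those of Pkn3 and Shc4 (0.0675 and 0.052). Bex2 differed by -0.71 (limma adjusted p = 0.0593).

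Among the members themselves, r with Cdh2 was 0.86 for Ctnna1 and 0.49 for Ctnnd1, and lay between -0.19 and 0.16 for the other 5.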

How the data were processed

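Per the labels' protocols, biotin-labelled cRNA from whole testes was run on Affymetrix arrays. Per the submitters' processing notes, which name affy and RMA without a version, the authors deposited RMA values, log2 expression for each probe set. RMA normalizes arrays to a common distribution and so can hide a common shift of most transcripts. The median of the deposited values was 6.26 on SCARKO-jsd 2 and 6.40 to 6.41 on the other 5 arrays. These medians do not tell whether such a shift was hidden. Groups were taken from the sample titles. Of 45101 probe sets, 64 array controls were left out. The other 45037 were each tested with limma 3.58.1 (lmFit and eBayes) in R 4.3.3, two-sided, with genotype as the only term, no filter on dim values and Benjamini-Hochberg adjustment over all of them at a threshold of 0.05. Gene symbols came from the platform annotation held by GEO, some of them old. Intervals are limma's 95% intervals.

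The members and gene lists were chosen with earlier results of these data known. Besides the members, the 2 genes with the smallest p of each list were named, or its called genes, and the 5 genes most like Cdh2. Differences between members were tested by exact permutation in scipy 1.17.1. The fit was tested on simulated data (45037 probe sets) with independent noise and no outlying array. In 3 arrays against 3 it recovered 98.5% of 66 probe sets with a 4-fold change, 68.7% of 67 with a 2-fold change and 8.96% of 67 with a 1.5-fold change, beside 6 false calls. The alternatives were other filters, gene-level summaries, scalings, variance models, array weights, a replicate block, other thresholds and each array left out. Same-numbered arrays were not taken as pairs. The gene targeted by the conditional knockout is not reported here. For arrays, their number limits the precision. Plots were made in matplotlib 3.10.9 (Python 3.11.15).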

Additional observations from a re-analysis of the deposited data

How the results depend on the processing

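The number of probe sets called was 126 (56 higher, 70 lower). It was 15 at an adjusted p under 0.01 and 372 under 0.1, 390 of 10916 with 1 brightest probe set per gene, 346 of 18193 with probe sets averaged per gene, 63 with median centring (35 higher, 28 lower), 215 with trend and robust, and 0 to 627 with 1 array left out (0 without jsd 1, 627 without SCARKO-jsd 2). Array weights, whose estimation stopped before it converged, gave 8870. Member probe sets called numbered 1 with all arrays, 0 under 0.01 and with median centring, 5 with array weights, and 0 to 2 with 1 array left out. For Cdh2 1418815_at the log2 fold change was -0.81 with median centring (limma adjusted p = 0.0802) and -0.91 to -0.78 with 1 array left out. The threshold of 0.01 ended its call, with the fit itself unchanged. Apart from these and the replicate block below, its alternatives kept the call. Same-numbered arrays were not taken as pairs, since their titles give only a replicate number. Their deviations correlated by -0.27, 0.24 and 0.35, and 2 of 6 arrays correlated best with their own number. With 3 arrays per group these values cannot settle whether the arrays were paired. With the replicate block limma called 0 probe sets and 0 members (Cdh2 at -0.85, adjusted p = 0.160), with 4141 at an unadjusted p under 0.05, against 4642 without it; without jsd 1 there were 2959.

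Signs turned only for members that were not called. With array weights they were -0.29 for Cdh1, 0.063 for Cdh3 1426673_at, 0.45 and 0.024 for Ctnna1 1436631_at and 1437275_at, -0.056 and -0.25 for Ctnnb1 1420811_a_at and 1450008_a_at, and 0.093 for Ctnnd1 1445830_at. Cdh3 1426673_at was 0.043 with median centring and 0.042 with a further quantile normalization. Cdh11 1450757_at and Ctnna1 1437275_at were 0.018 and 0.040 with median centring. With all probe sets of a gene averaged, Cdh3 was 0.14 and Ctnnb1 was -0.029. These are values of the gene, opposite in sign to its brightest probe set, and not a turn of that probe set. With 1 array left out the ranges were -0.13 to 0.38 for Cdh1, -0.069 to 0.11 for Cdh3 1426673_at, -0.35 to 0.28 for Cdh11 1450757_at, -0.51 to 0.41 and -0.11 to 0.11 for Ctnna1 1436631_at and 1437275_at, -0.032 to 0.098 and -0.095 to 0.15 for Ctnnb1 1420811_a_at and 1450008_a_at, -0.43 to 0.17 for Ctnnd1 1445830_at and -0.082 to 0.21 for Jup. The cause was not tested. The differences between Cdh2 and the other members kept their sign when probe sets were averaged. Median centring shifts both genes on an array equally, so it cannot change these differences and does not test them.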

Other observations

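In the RefSeq gene order (GRCm38.p6), Cdh3 and Cdh1 are neighbours, Cdh11 lies between Cdh8 and Cdh5, and Cdh2 lies beside the desmosomal cadherin Dsc3. Cdh2 had a log2 fold change of -0.85, while Dsc3, dim in both groups, differed by 0.45 at 1434534_at and 0.17 at 1427637_a_at, of which neither passed (limma adjusted p = 0.244 and 0.628). Cdh5, at its brighter probe set 1433956_at, read 7.25, 7.95 and 7.06 in SCARKO-jsd 1, 2 and 3, against 7.34, 7.34 and 7.03 in jsd testes (log2 expression), and differed by 0.18 (limma adjusted p = 0.837), which turned to -0.08 without SCARKO-jsd 2. Cdh8 was dim in all arrays. These neighbours were looked at after the values were seen, and the difference between neighbours was not tested.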
